A study of Caenorhabditis elegans with 2 samples.

Results

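The transthyretin-like (ttr) genes of Caenorhabditis elegans were described in whole wild-type N2 hermaphrodites at the fourth larval stage (L4). The members were the genes whose symbol is ttr followed by a number and that at least 1 probe set of the array names alone. This rule found 40 genes, read by 41 probe sets, among 17118 genes on the array. The RefSeq gene table for assembly WBcel235 lists 59 ttr genes, and the other 19 had no probe set of their own. Of those, 6 share 3 probe sets in pairs, and 13 (ttr-7, ttr-11, ttr-33, ttr-34, ttr-36, ttr-38, ttr-41, ttr-42, ttr-43, ttr-45, ttr-55, ttr-57 and ttr-58) were not analysed here.

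Both groups were N2 animals grown at 20 °C on nematode growth medium with Escherichia coli OP50 as food, from a bleach-synchronised L1 culture. The control animals grew for 48 hours without the compound. The pOPC7 animals grew for the same 48 hours, from L1 to L4, with 2 µg/mL of pOPC7, a proanthocyanidin trimer gallate prepared from grape seeds (Vitis vinifera). Each group had 1 array, so no difference has a replicate check and no p-value was computed. Whether an array stands for 1 culture or several was not given in the sources used here.

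Transthyretin carries thyroid hormone and retinol-binding protein in vertebrate blood. The nematode transthyretin-like proteins are a separate, large family of small proteins that share a distant resemblance to it, and most carry a signal for secretion. Few have a known role. TTR-52 is secreted and binds phosphatidylserine on dying cells, where it bridges the corpse to the receptor CED-1 on the engulfing cell, and TTR-33 has been linked to the survival of dopaminergic neurons under oxidative stress.

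The deposited values are log2 levels after RMA normalisation. A gene was called measured where the mean of both arrays was 6 or more, and bright where it was 10 or more. It was called silent where it lay, on each array, at or below the 75th percentile of 526 chemoreceptor genes (str, srd, srh and sri), most of which are made in few neurons. Those limits were 2.95 in the control and 3.05 with pOPC7. A gene below 6 that was not silent is called dim here. Probes differ in how strongly they respond to their target, so these classes describe the signal of each probe set, and the order of 2 genes in level is not an order of transcript amount. In whole animals, fewer cells of a type and less RNA per cell cannot be told apart.

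The labels were checked with gene lists. Sperm genes, which turn on in L4 hermaphrodites, reached 13.57 in the control and 13.60 with pOPC7 (msp-78), and 7 of 8 were measured. None of 8 male genes was measured, with levels from 2.52 to 5.32 in the control and from 2.36 to 5.81 with pOPC7, and none of the 5 early embryonic genes on the array was. The moulting genes were measured in 7 of 8 cases. The 5 yolk protein genes on the array were all bright in the mean of both arrays. They ran from 10.22 to 12.28 in the control and from 9.83 to 12.32 with pOPC7. Late L4 larvae and young adults cannot be told apart by these lists. Markers of muscle and germ line were measured in all of 3 cases each, hypodermis in both of its cases, and intestine and neurons in 2 of 3 each.

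Most ttr genes were measured at L4. Of the 40 members 29 passed the limit (72.5%), where 47.1% of all genes were. The bright class held 10 members (25%), against 4.49% of all genes, and the silent class held 2 (5%), against 13.3%. Of the 2278 silent genes on the array 372 were the chemoreceptors whose own levels set the silent limit, which raises the share of all genes. The median level of the members was 7.47 in the control and 7.77 with pOPC7, and that of all genes was 5.73 and 5.80. The gap between the 2 medians of the members is not a typical difference of a member. Over all 40 members the median of the differences, pOPC7 minus control, was -0.01. These shares are descriptions of the probe sets on the array and were not tested.

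**Figure D1:**
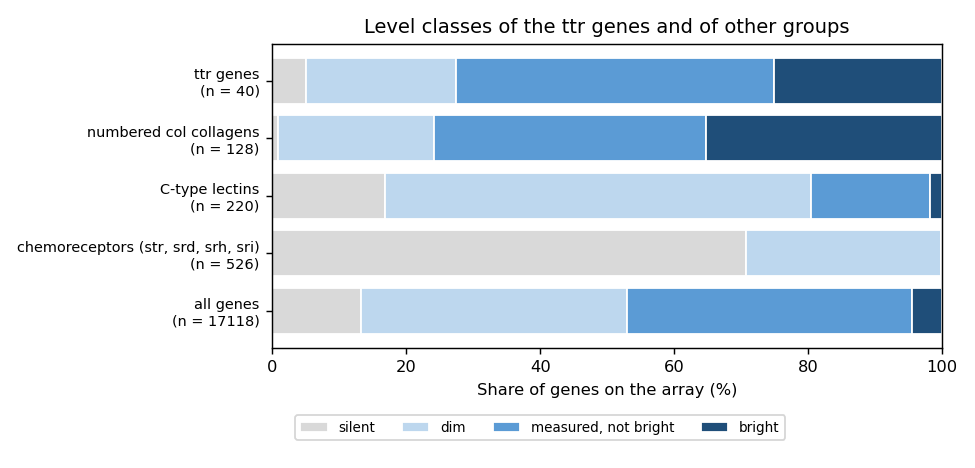
Share of genes in each level class (horizontal axis, percent of the genes on the array) for the ttr genes, the numbered col collagens, the C-type lectins, the chemoreceptors that set the silent limit, and all genes. The bright part makes up 25% of the ttr bar and 4.49% of the bar for all genes.

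The same classes were counted in the numbered collagens, which build the cuticle, and in the C-type lectins, another large family of mostly secreted proteins. Of 128 collagen genes 75.8% were measured and 35.2% were bright. Of 220 lectin genes 19.5% were measured and 1.82% were bright. Silent genes made up 0.781% of the collagens and 16.8% of the lectins. In the measured and bright shares the ttr genes lay nearer to the collagens than to the lectins, a difference between families that was not tested.

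The bright class was led by ttr-15, with 12.24 in the control and 12.13 with pOPC7. Next came ttr-16, with 11.76 in the control and 11.87 with pOPC7, and ttr-14, with 11.36 and 11.34. These 3 were the members above 11, and none of them differed by more than 0.11 between the arrays. ttr-24 had 10.63 in the control and 10.64 with pOPC7, and ttr-2 had 10.58 and 10.59. ttr-46 stood at 10.55 in the control and 10.36 with pOPC7. The other bright members lay close to the limit of 10. ttr-44 had 10.17 and 10.26 (control, then pOPC7), ttr-48 had 10.13 and 10.24, ttr-17 had 10.15 and 10.08, and ttr-51 had 10.07 and 10.06. Probe sets whose suffix (_s_at) marks possible matches to several transcripts alone read ttr-15, ttr-44 and ttr-51 here and ttr-18 below, and 1 of the 2 of ttr-24 is of this kind. Without such probe sets 7 members were bright. All 10 were above 10 on each array taken alone, and no member crossed that limit between the arrays. No role in the worm was assigned to these genes here.

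**Figure D2:**
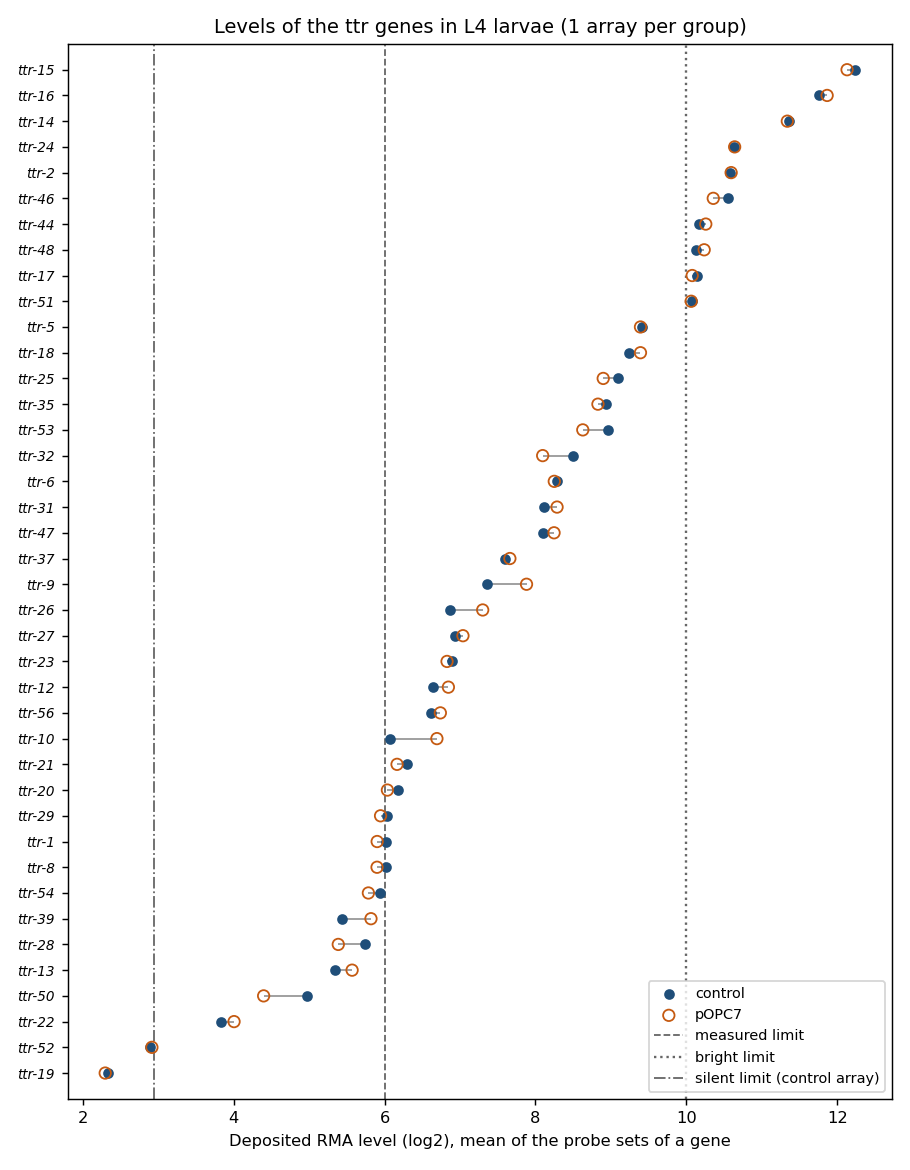
Level of each of the 40 ttr genes (horizontal axis, deposited RMA level, log2) in the control (filled) and the pOPC7 array (open), ordered by the mean. Vertical lines mark the bright limit, the measured limit and the silent limit of the control array. The levels run from 12.24 (ttr-15, control) to 2.30 (ttr-19, pOPC7).

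Just under the bright limit stood ttr-5, with 9.41 in the control and 9.39 with pOPC7, and ttr-18, with 9.25 and 9.39. In the range from 8 to 10 there were 9 members, which were ttr-5, ttr-18, ttr-25, ttr-35, ttr-53, ttr-32, ttr-6, ttr-31 and ttr-47. In the range from 6 to 8 there were 10, which were ttr-37, ttr-9, ttr-26, ttr-27, ttr-23, ttr-12, ttr-56, ttr-10, ttr-21 and ttr-20. Several of these were nearly level between the arrays, with ttr-6 at 8.28 in the control and 8.25 with pOPC7, ttr-37 at 7.59 and 7.66, and ttr-23 at 6.89 and 6.83. ttr-35 (8.93 and 8.83), ttr-47 (8.10 and 8.25), ttr-27 (6.93 and 7.04) and ttr-56 (6.61 and 6.74) differed by at most 0.14. The members at the measured limit form a tight group that the limit divides. ttr-20 lay just above it, at 6.18 in the control and 6.04 with pOPC7, as did ttr-21, at 6.29 and 6.16. ttr-29 (6.03 and 5.95), ttr-1 (6.01 and 5.90) and ttr-8 (6.01 and 5.90) lay just below it in the mean. These last 3 were at 6 or more in the control and under it with pOPC7, with differences of -0.09, -0.11 and -0.12. Through them, 32 members reached 6 in the control and 29 with pOPC7. The same counts over all genes were not made, so these counts are not read as a change of the family.

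The dim class held 9 members. Besides ttr-29, ttr-1 and ttr-8 these were ttr-54 (5.94 in the control, 5.78 with pOPC7), ttr-39 (5.44 and 5.82), ttr-28 (5.74 and 5.39), ttr-13 (5.34 and 5.57), ttr-50 (4.97 and 4.40) and ttr-22 (3.83 and 4.004). All of the 9 lay above the silent limits on both arrays. The probe set of ttr-50 also carries the _s_at suffix.

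The silent members were ttr-52 and ttr-19. ttr-52, the engulfment bridge, had 2.89 in the control and 2.91 with pOPC7. ttr-19 had the lowest values of all members, 2.33 in the control and 2.30 with pOPC7. Both were read by a single probe set each. A gene without a transcript, a transcript made in few cells and a probe set that does not respond give the same low signal. These data do not separate them.

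The levels of members that sit next to each other in the genome were set side by side. By the WBcel235 annotation, 14 members form 6 groups in which gene starts follow each other within 20 kb, 4 groups of 2 and 2 groups of 3. In 5 of the 6 groups the members were not all in the same class. This held in 4 of the 6 on the control array alone, and in 2 of the 6 with a measured limit of 5. Of the 10 pairs within groups 70% fell in different classes, and so did 67.6% of all 780 pairs of members. With a limit of 5 these shares were 30% and 52.3%, and with a limit of 7 they were 50% and 70.3%. ttr-2 was bright (10.58 and 10.59) while its neighbour ttr-1 was dim. ttr-32 (8.50 in the control) lay next to ttr-8, which was dim in the mean of both arrays but had 6.01 in the control. ttr-53 (8.97 in the control) lay next to ttr-54, also dim, with 5.94 in the control. In the trio of ttr-24, ttr-25 and ttr-26 the control levels were 10.63, 9.09 and 6.87. In the trio of ttr-27, ttr-28 and ttr-29 they were 6.93, 5.74 and 6.03. By the mean of both arrays, ttr-16 and ttr-17 formed the only group with all members in the same class, both bright. Within the trios, ttr-25 and ttr-26 were both measured but not bright, and ttr-28 and ttr-29 were both dim.

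**Figure D3:**
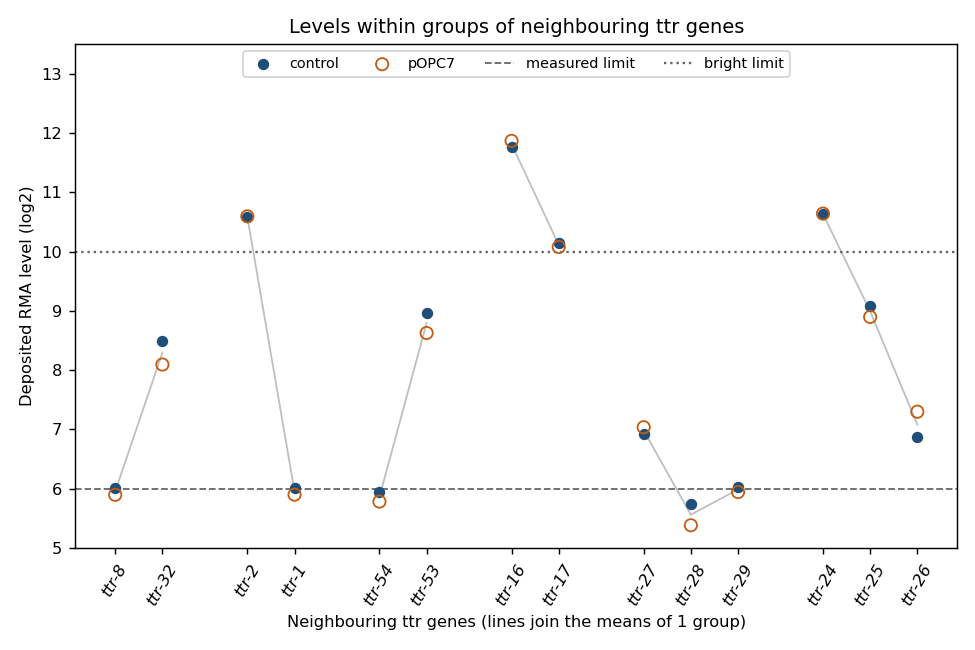
Level (vertical axis, deposited RMA level, log2) of the 14 members that form 6 groups of neighbouring ttr genes, in the control (filled) and the pOPC7 array (open), with lines joining the means within a group. In the pair of ttr-2 and ttr-1 the control values are 10.58 and 6.01, and in the pair of ttr-16 and ttr-17 both are above 10.

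The exposed animals differed little from the controls in these genes. Over the 29 measured members Pearson's r between the arrays was 0.993 across genes, against 0.991 over all measured genes, as a description of probe sets that share the same 2 arrays. The median difference, pOPC7 minus control, was 0.02 on the log2 scale, where that of all 8059 measured genes was 0.04. The members were split evenly in direction, with 15 above 0 (51.7%) and 14 below, against 57.8% above 0 for all measured genes. Of the 29, 24 lay within 1.2-fold (82.8%), as did 82.3% of all measured genes. The SD of the differences was 0.22 over the members and 0.20 over all measured genes.

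Only ttr-10 passed 1.5-fold (0.585 on the log2 scale). The control array gave it a level of 6.07 and the pOPC7 array one of 6.69, which is 0.62 or 1.54-fold higher. Of all measured genes 0.732% were higher by 1.5-fold and 0.211% were lower. The call rests on how the arrays are scaled, since ttr-10 differed by 0.582 after centring on the median of all measured genes and by 0.56 after removal of a trend with level, both short of 1.5-fold. With these scalings 0.509% and 0.409% of all measured genes were higher by 1.5-fold. No member was lower by 1.5-fold, and none passed 2-fold in either direction.

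At 1.2-fold 3 members were higher, against 11.6% of all measured genes, and 2 were lower, against 6.06%. After ttr-10 the highest was ttr-9, which went from 7.36 in the control to 7.88 (0.52). ttr-26 went from 6.87 to 7.30 (0.43). These 3 members all lay in the range of levels from 6 to 8. On the other side ttr-32 had 8.50 in the control and 8.10 with pOPC7 (-0.40), and ttr-53 had 8.97 and 8.63 (-0.34). The next members were ttr-12 (6.65 and 6.85, difference 0.20) and ttr-31 (8.12 and 8.29, difference 0.17) among the higher, and ttr-46 (-0.19), ttr-25 (9.09 and 8.90, difference -0.19) and ttr-20 (-0.15) among the lower. All of these fell within 1.2-fold.

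**Figure D4:**
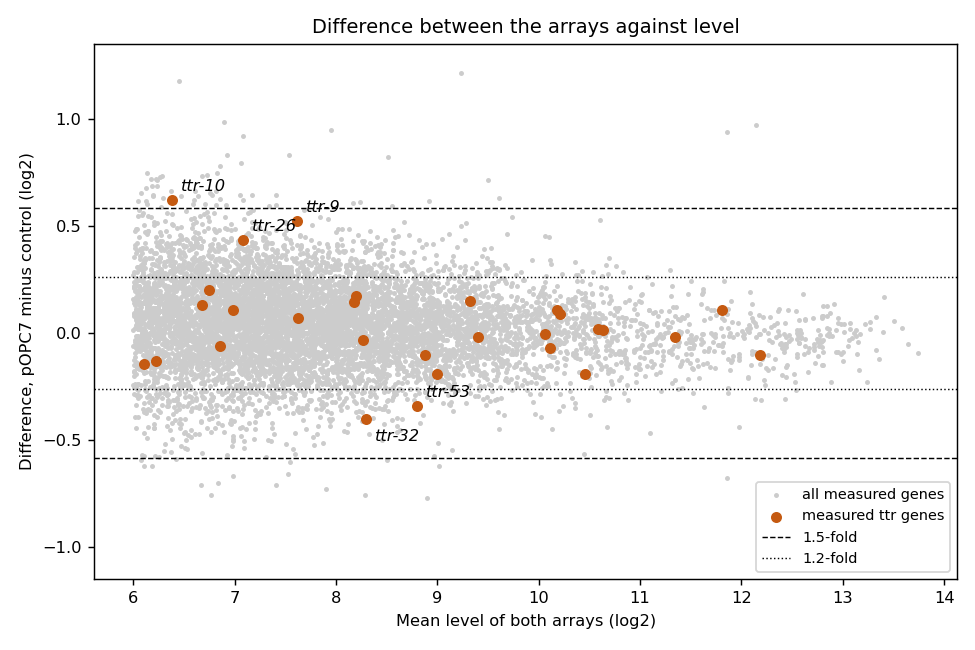
Difference between the arrays (vertical axis, pOPC7 minus control, log2) against the mean level of both arrays (horizontal axis, log2) for all 8059 measured genes (grey) and the 29 measured ttr genes (orange). Dashed lines mark 1.5-fold and dotted lines 1.2-fold. Only ttr-10 lies beyond 1.5-fold, and the bright members lie between -0.19 and 0.11.

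The spread of the members narrowed with level. The 10 members from 6 to 8 ran from -0.15 to 0.62 (SD 0.27), the 9 from 8 to 10 ran from -0.40 to 0.17 (SD 0.21), and the 10 bright members ran from -0.19 to 0.11 (SD 0.10). All measured genes in the same ranges had SDs of 0.21, 0.17 and 0.14. Below the measured limit, 3 of 11 members differed by more than 1.2-fold, which were ttr-50 (-0.57), ttr-39 (0.38) and ttr-28 (-0.36). Of all genes below the limit, 31.1% differed by as much.

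The disagreement between probe sets of the same gene gives a spread for the difference of a single probe set. Both probe sets share the RNA and hybridisation of each array, so this spread leaves out technical error common to an array. It also does not cover variation between cultures, which 1 array per group cannot show. Several measured probe sets were on the array for 1721 genes, and the disagreement between the first and the second corresponded to an SD of 0.22 for the difference of a single probe set, and to 0.23, 0.21 and 0.17 in the ranges from 6 to 8, from 8 to 10 and over 10. Of the 29 measured members 24 differed by less than 1 such SD, and this share was not counted over all measured genes. A difference of more than 2 such SDs, that is of more than 0.433, was seen for 3 members (ttr-10, ttr-9 and ttr-26). It was seen for 3.55% of all measured genes. With the SD of the range from 6 to 8, where 2 SDs are 0.462, only 2 members (ttr-10 and ttr-9) were beyond 2 SDs. That count was not made over all measured genes. The share of 3.55% includes genes averaged over several probe sets, so it is not matched to members read by 1. Across these 1721 genes r between the differences of both probe sets was 0.08. All of the members but ttr-24 rest on 1 probe set. The 2 probe sets of ttr-24 had opposite signs, with 10.98 in the control and 10.86 with pOPC7 (-0.12) in the first and with 10.27 and 10.42 (0.15) in the second.

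The differences also moved with the number of the probe set on this array. Measured probe sets numbered below 176000 had a median difference of -0.06 (2474 probe sets) and the others of 0.06 (7971). The cut at 176000 was set from these same differences, at the end of the highest block of numbers whose median was below 0. Every block above it therefore had a median of 0 or more by construction, so part of this contrast is built in. Low-numbered probe sets read ttr-15, ttr-44, ttr-32 and 1 of the 2 values of ttr-24. The 25 measured members without such a probe set had a median of 0.02, with 13 above 0. The part of this shift in the difference of ttr-32 was not tested.

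The genes around TTR-52 in corpse engulfment were read as a list of 19, of which 16 were measured. None passed 1.5-fold in either direction (0.732% of all measured genes were higher by it and 0.211% lower). At 1.2-fold 2 were lower, against 6.06% of all measured genes, and none was higher, against 11.6%. Of the 16, 5 lay above 0 and 11 below, where 57.8% of all measured genes lay above 0. Their median difference was -0.11, against 0.04. psr-1, which encodes a phosphatidylserine receptor, had 8.33 in the control and 8.36 with pOPC7. nrf-5, whose secreted product acts with TTR-52 in passing phosphatidylserine to the engulfing cell, had 7.75 and 7.44 (-0.30). ced-1, which encodes the engulfment receptor that TTR-52 binds, had 6.32 and 6.07 (-0.25), close to the measured limit. Below that limit, unc-73, which encodes an exchange factor for Rac, had 5.51 and 5.81 (0.31).

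The largest difference of the list was that of ced-6, which encodes the adaptor that acts behind CED-1, with 7.21 in the control and 6.64 with pOPC7 (-0.57). It passed 1.5-fold after centring (-0.61), as did 0.372% of all measured genes in the lower direction. Its 2 probe sets had the same sign (-0.71 and -0.43), while those of ced-1 did not (-0.58 and 0.08). The first of ced-1 had 6.07 in the control and 5.50 with pOPC7, which is below the measured limit in the mean. Of the 16 genes, 7 had measured probe sets both below and above number 176000, and in 5 of the 7 the low-numbered ones gave the lower difference. Without low-numbered probe sets the median of the list was 0.09, the opposite direction. Since the cut at 176000 was set from the differences of all measured probe sets, neither count nor median is an independent check.

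The array also holds the genes of the transthyretin-related proteins, a family closer to vertebrate transthyretin whose members in other species are enzymes of uric acid breakdown, and which does not carry the ttr name. R09H10.3 had 9.01 in the control and 8.74 with pOPC7 (-0.28). ZK697.8 had 2.94 and 2.88, at the level of the silent ttr genes. Each was read by a single probe set.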

How the data were processed

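Total RNA of whole L4 larvae was amplified, biotin-labelled and hybridised, per the labels' protocols. The deposited table holds log2 values made by the authors with RMA, per the submitters' processing notes (the log2 scale was read from the range of the values). The sources used here do not give the version of RMA or its software. There were 22625 probe sets and 2 arrays, 1 per group, and this number limits the precision of every value.

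The platform annotation gave 1 gene symbol to 20766 of them. The 41 ttr probe sets all matched WBcel235 symbols by Entrez identifier. A gene's value was the mean of its probe sets. The whole table was processed, and only the rows of interest are given. Differences are pOPC7 minus control. The level trend was a loess fit (span 0.3). No test was run, since no group has replicates. The code was tested on simulated data. The members, lists and limits were chosen with earlier results of these data known. All members are named, with values for bright and dim ones, for those nearest a limit and for the 5 largest differences each way. Of the engulfment list the 3 largest differences among measured genes are given, and psr-1 and unc-73 were added after their values were seen. Sequences and positions were not used here beyond which genes neighbour each other. Analyses used Python 3.11.15, pandas 2.3.3, numpy 2.4.6, statsmodels 0.14.6 and matplotlib 3.10.9.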

Additional observations from a re-analysis of the deposited data

How the results depend on the processing

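Of 67 values recomputed under other settings for the level classes, the neighbouring genes, the ttr differences and the engulfment list, 52 stayed within 1.5 times the count reported or moved a median by less than the SD of all measured genes divided by the square root of the number of members. The bright class held 3 members with a limit of 11, and the silent class held 1 at the 50th percentile of chemoreceptors. Groups of neighbours with mixed classes numbered 2 with a measured limit of 5. The median difference of the ttr genes was -0.0228 after centring. It was -0.0127 with a limit of 5, with a limit of 6 on the brighter array and with no limit. With the brightest probe set of each gene it was -0.0059. These last changes of sign were small enough to count among the 52. All members but ttr-24 rest on 1 probe set, so the brightest probe set could change no other member. The number of ttr genes higher by 1.5-fold was 0 with a measured limit of 7, after centring, after removal of the level trend and with a threshold of 3 local robust SDs, and at 1.2-fold 3 were higher and 2 lower. The engulfment median was -0.0446 with a limit of 7, -0.18 with the level trend removed and 0.0883 without low-numbered probe sets, and 1 of its genes was lower by 1.5-fold after centring and with the trend removed. The settings on low-numbered probe sets and on neighbours, and the trend for the engulfment list, were chosen after seeing the data. The causes were not tested. No paired analysis was possible because each group has 1 array, and no array could be left out.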

Other observations

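Probe sets that name a pair of ttr genes were left out of the member values. The probe set of ttr-30 and ttr-59 had 8.22 in the control and 8.27 with pOPC7, that of ttr-3 and ttr-4 had 9.86 and 9.81, and that of ttr-49 and ttr-40 had 6.04 and 6.11. The share of each gene in these signals is not known from the array. The WBcel235 table lists ttr-4 as a pseudogene.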
